A study of Mus musculus with 12 samples.

Results

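The genes described here coat lipid droplets, make droplets grow or bud, or break down the triglyceride stored in them: the perilipins *Plin2*, *Plin3*, *Plin4* and *Plin5*, the CIDE genes *Cidea* and *Cidec*, the fat storage-inducing transmembrane genes *Fitm1* and *Fitm2*, the lipase gene *Pnpla2* and the lipase inhibitor gene *G0s2*. They were taken by symbol from a table of 19308 genes, which held all 10 symbols in 11 entries. *Plin2* was listed under the gene identifiers 11520 and 101055843, and the second entry held 2.29 counts in F3-KO TAC heart 1, 1.12 in F3-KO TAC heart 3 and 0 in the other hearts, so *Plin2* below is gene 11520. RNA of 12 whole hearts of C57BL/6 mice, described as male in the study's methods, was sequenced, with 3 biological replicates in each of 4 groups. The groups were wild type (WT) or Fabp3-null mice, the latter a global CRISPR-Cas9 knockout called F3-KO, after a sham operation or after transverse aortic constriction (TAC), which narrows the aortic arch and raises the load on the left ventricle. Surgery was done at 8 weeks of age and hearts were taken 1 week later. The deletion is carried by every tissue and not by heart muscle alone, and whole hearts were used, so that fewer cells of a type and less RNA per cell cannot be told apart.

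A lipid droplet is a core of triglyceride and cholesteryl ester inside a single layer of phospholipid. Perilipins sit on that layer and govern the access of lipases. Adipose triglyceride lipase, the product of *Pnpla2*, removes the first fatty acid from triglyceride with the help of the co-activator encoded by *Abhd5*, and the product of *G0s2* inhibits it. The FITM proteins of the endoplasmic reticulum bind triglyceride and are needed for droplets to form, and CIDE proteins move lipid between droplets that touch, so that the larger one grows. Cardiac muscle keeps few, small droplets, and PLIN5, the perilipin typical of oxidative tissue, tethers them to mitochondria. *Fabp3*, the gene deleted here, encodes the protein that carries fatty acids through the cytosol of heart muscle cells.

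Estimated counts per heart summed to 10424334 to 14372011, and 3 counts, the limit that a count of 0 allows, came to 0.209 to 0.288 CPM, which covers counting error only. CPM are counts divided by library size, scaled with TMM factors for the levels of single genes below. *Fabp3* was still counted in F3-KO hearts, at 1089, 1040 and 1066 CPM after sham and 1143, 1002 and 1014 CPM after TAC. WT hearts held 2849, 2432 and 2117 CPM after sham and 3064, 2887 and 2904 CPM after TAC, so that no F3-KO heart reached a WT heart (log2 fold change -1.21 after sham and -1.49 after TAC, adjusted p = 0.00784 and 0.00146, edgeR quasi-likelihood, Benjamini-Hochberg over all genes). The knockout scheme of the study removes the second exon and keeps the others, and these counts per gene, which do not separate exons, do not test the deletion. Of the adipocyte genes that could bring droplet transcripts into a heart sample, *Plin1* reached at most 0.304 CPM, *Adipoq* 0.379 CPM and *Ucp1* 0.0917 CPM in any heart. The summed level of the 5 white adipocyte markers in the table (of 6 listed) was 0.348 to 2.23 CPM of the library total in all 12 hearts. Markers of heart muscle cells were high in every heart, and their sum was 34190 to 42460 CPM in F3-KO TAC hearts against 44930 to 61550 CPM in the other 9.

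The sequences just upstream of *Plin2*, *Plin5* and *Pnpla2* are shown because *Plin5* followed *Pnpla2*, and *Plin2* the fatty acid-responsive gene *Angptl4*, by Pearson's r over the 12 hearts. Each is the 250 bases before a RefSeq start site on GRCm38.p6, 5′ to 3′ on the gene's own strand. Capitals mark the 6-base motif AGGTCA, which is a unit of the sites that nuclear receptors bind, or its reverse complement TGACCT.
Plin2, chr4:86670060-86670309 (minus strand): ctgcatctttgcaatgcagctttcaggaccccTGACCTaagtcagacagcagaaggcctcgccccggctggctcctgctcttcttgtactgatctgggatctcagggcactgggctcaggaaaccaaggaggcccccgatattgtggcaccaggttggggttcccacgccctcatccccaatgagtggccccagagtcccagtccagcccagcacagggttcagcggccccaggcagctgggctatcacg
Plin5, chr17:56117549-56117798 (minus strand): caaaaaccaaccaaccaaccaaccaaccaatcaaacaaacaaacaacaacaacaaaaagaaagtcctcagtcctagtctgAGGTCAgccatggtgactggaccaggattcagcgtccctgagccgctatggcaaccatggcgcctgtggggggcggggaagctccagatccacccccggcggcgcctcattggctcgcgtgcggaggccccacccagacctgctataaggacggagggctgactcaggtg
Pnpla2, chr7:141454938-141455187 (plus strand): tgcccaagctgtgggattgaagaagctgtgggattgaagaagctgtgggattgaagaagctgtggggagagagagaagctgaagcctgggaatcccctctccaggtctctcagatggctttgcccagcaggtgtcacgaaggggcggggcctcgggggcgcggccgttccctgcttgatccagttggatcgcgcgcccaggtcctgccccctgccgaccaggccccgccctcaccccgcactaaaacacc
The motif occurs in 1 copy in the *Plin2* window and in 1 copy in the *Plin5* window, and these letters are not in the *Pnpla2* window. Full promoter entries, which add the 50 bases after the start site, matched 9 of the 10 genes by symbol, all but *Cidea*. Besides *Plin2*, *Plin5* held the motif in the entries of both its start sites, and the entries of *Cidec*, *Fitm1*, *Fitm2*, *G0s2*, *Plin3*, *Plin4* and *Pnpla2* did not hold these letters. Of all 32851 promoter entries of the same length 5340 (16.3%) held the motif on either strand, and 13 held it in 2 copies 1 base apart, an arrangement that none of these genes had. Such a match describes the letters and does not show a bound site.

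Per kilobase of exon, the lipase gene was the most abundant member. Exon length here joins all annotated exons of a gene, and the order of the genes depends on it. *Pnpla2* averaged 201 ± 58.5 CPM per kilobase of exon (SD over 12 hearts) and *Fitm1*, the FITM gene of striated muscle, 114 ± 35.1. A block of genes followed at similar levels, with *Plin3* at 56.0 ± 16.9, *Plin5* at 55.2 ± 14.4, *Fitm2* at 54.8 ± 15.5 and *Plin4* at 50.5 ± 12.6 CPM per kilobase. Within this block each gene exceeded the next in only 5 or 6 of the 12 hearts, and the order of the group means differed between groups. *Fitm2* stood at 74.3 and *Plin3* at 45.9 CPM per kilobase in WT sham hearts, against 36.4 and 61.3 in F3-KO TAC hearts. *G0s2* (40.8 ± 19.9), *Cidea* (30.3 ± 4.88) and *Plin2* (23.0 ± 4.43) were lower, with *G0s2* above *Cidea* and *Cidea* above *Plin2* in 10 of 12 hearts each, although in F3-KO TAC hearts the means were close, at 26.3 CPM per kilobase for *Plin2* and 25.1 for *G0s2*, with *Cidea* just below. *Pnpla2* exceeded *Fitm1*, and *Fitm1* exceeded *Plin3*, in 11 of 12 hearts. *Cidec*, which in fat cells drives the growth of a single large droplet, was at the detection limit with 0 to 0.412 CPM per heart and did not pass the filter on low counts, which leaves 9 members for testing among 14094 genes. Of the summed perilipin level per kilobase, *Plin5* held 33.3% to 37.3% in WT sham, 25.4% to 34.5% in F3-KO sham, 29.1% to 36.2% in WT TAC and 20.9% to 27.3% in F3-KO TAC hearts. *Plin2* held 10% to 11.6%, 11.7% to 12.7%, 9.38% to 13.6% and 10.2% to 22.0% in the same groups.

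**Figure D1:**
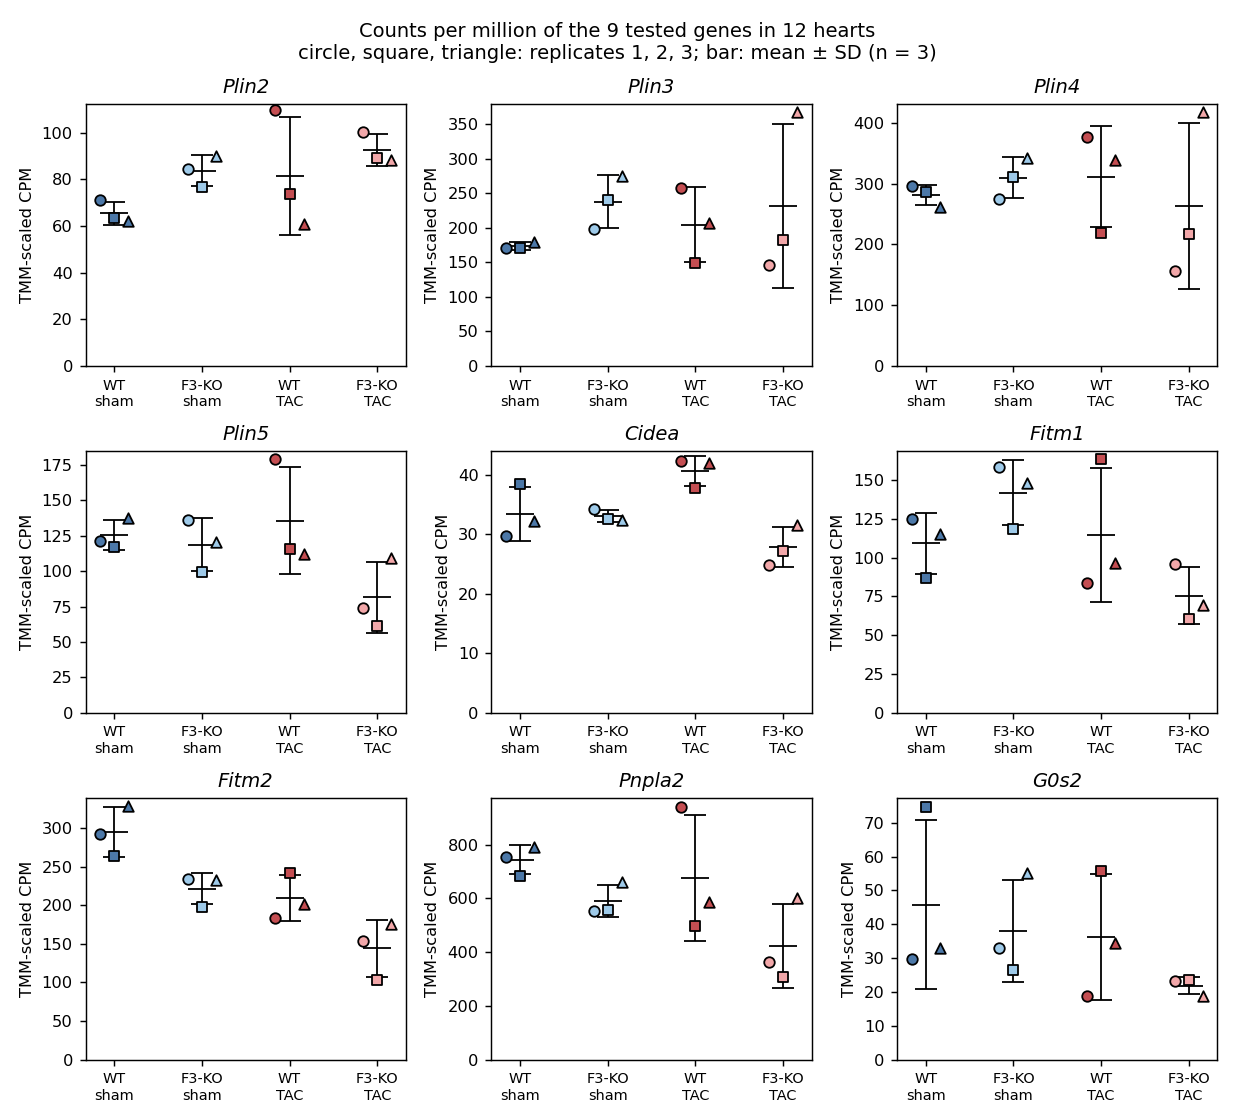
Level of each of the 9 tested genes in every heart, as TMM-scaled CPM on a linear axis from 0, with 1 panel a gene and the 4 groups along the x axis. Symbols are single hearts (circle, square and triangle for replicates 1, 2 and 3) and bars give the mean ± SD of 3 hearts. The 3 WT sham hearts held the highest *Fitm2* levels, and *Cidea* was higher in all 3 WT TAC hearts than in any F3-KO TAC heart.

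The comparison of F3-KO with WT hearts after TAC placed 7 of the 9 tested genes lower in F3-KO hearts, but none passed the test. Over all genes 53.1% were higher in F3-KO hearts. *Cidea*, *Plin5*, *Fitm2*, *Pnpla2* and *Fitm1* had an unadjusted p under 0.05, all 5 with the lower level in F3-KO TAC hearts, against 10% of all 14094 genes with such a p. None of the 9 had an adjusted p under 0.05 (0.078% of all genes did), and for *Cidea*, *Plin5* and *Fitm2* the 3 hearts of one group all lay below the 3 of the other (11.4% of all genes did not overlap, in either direction). The median log2 fold change of the 9 genes was -0.55, where the median of all genes was 0.02. DESeq2's Wald test, run as an alternative, had an adjusted p under 0.05 for *Cidea* alone among them (0.594% of 15835 genes), and limma-trend for none (0.0993% of 14094 genes).

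TAC itself was compared with sham within each genotype. In F3-KO hearts 8 of 9 genes had a negative log2 fold change (median -0.48, against 0.02 over all genes), where 52.9% of all genes had a positive one. Of the 9, 0 passed the adjusted test (0% of all genes) and 3 had an unadjusted p under 0.05 (*Fitm1*, *Fitm2* and *Plin5*, 17.1% of all genes). The TAC hearts lay below all sham hearts for *Fitm1*, *Fitm2*, *Cidea* and *G0s2*, 4 of 9 where 22.9% of all genes did not overlap. DESeq2 called *Fitm1* and *Fitm2* in this comparison (3% of 14718 genes). The median was -0.73 without F3-KO TAC heart 3 and -0.30 without F3-KO TAC heart 2, and 6 to 8 genes were negative over the hearts left out. In WT hearts the median was 0.11 against 0.00 over all genes, 0 of 9 passed (0% of all genes), 2 had an unadjusted p under 0.05 (*Fitm2* lower and *Cidea* higher after TAC, 6.28% of all genes), and *Fitm2* alone did not overlap (9.1% of all genes). DESeq2 called 0 of 9 there (26 of the 19205 genes with any count, 0.135%). The median of the 9 genes was -0.01 without WT TAC heart 1 and 0.22 without WT TAC heart 2.

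After sham, the median log2 fold change between F3-KO and WT hearts was -0.02, against 0.00 over all genes, 0 of 9 passed (0.106% of all genes) and 1, *Fitm2*, had an unadjusted p under 0.05 (6.02% of all genes). When only the 6 sham hearts were fitted, 5 of 9 had such a p, 2 of them lower in F3-KO hearts (8.58% of all genes), and the 5 genes of the comparison after TAC became 3 when only the TAC hearts were fitted (5.94% of all genes). Groups did not overlap for 4 genes, with *Plin2* and *Plin3* higher and *Fitm2* and *Pnpla2* lower in F3-KO hearts, where 13.7% of all genes did not overlap. The difference between the TAC differences of the 2 genotypes, tested as an interaction, was negative for all 9 genes (median -0.38, against 0.03 over all genes, and between -0.68 without F3-KO TAC heart 3 and -0.22 without WT TAC heart 1), with 0 passing (0% of all genes) and 2 at an unadjusted p under 0.05, *Cidea* and *Fitm1* (4.48% of all genes). The median was also -0.24 without F3-KO TAC heart 1 and -0.25 without F3-KO sham heart 3, and 8 of 9 genes were negative without WT TAC heart 1 or F3-KO TAC heart 2. These comparisons share hearts, so that the F3-KO TAC hearts enter the genotype difference after TAC, the TAC difference in F3-KO hearts and the interaction alike. Over all genes 54.2% had a positive interaction. All 6 heart muscle cell markers had a negative one (median -0.39). Their medians were -0.36 for genotype after TAC and -0.44 for TAC in F3-KO hearts. All 9 PPAR targets listed below were negative in the interaction (median -0.81), and all 6 fibroblast markers positive (0.50). The lists of other droplet proteins, other lipases and triglyceride synthesis had medians of 0.04, -0.16 and -0.06.

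Averaged over both genotypes, TAC against sham gave 0 of 9 genes past the test (0.078% of all genes), 2 at an unadjusted p under 0.05 (*Fitm2* and *Fitm1*, both lower, 17.8% of all genes) and 0 with groups that did not overlap (0.837% of all genes). Averaged over both surgeries, F3-KO against WT gave 0 of 9 (0.412% of all genes), 4 at an unadjusted p under 0.05 (*Fitm2*, *Cidea*, *Pnpla2* and *Plin5*, all lower, 10.1% of all genes) and 0 that did not overlap (0.639% of all genes). DESeq2 called *Fitm2* in both of these averages, where it called 4.06% of 15090 genes for surgery and 1.4% of 15462 genes for genotype. It called 0 of 9 for the interaction (6 of the 19205 genes with any count, 0.0312%) and for the sham hearts (102 of 19205, 0.531%).

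**Figure D2:**
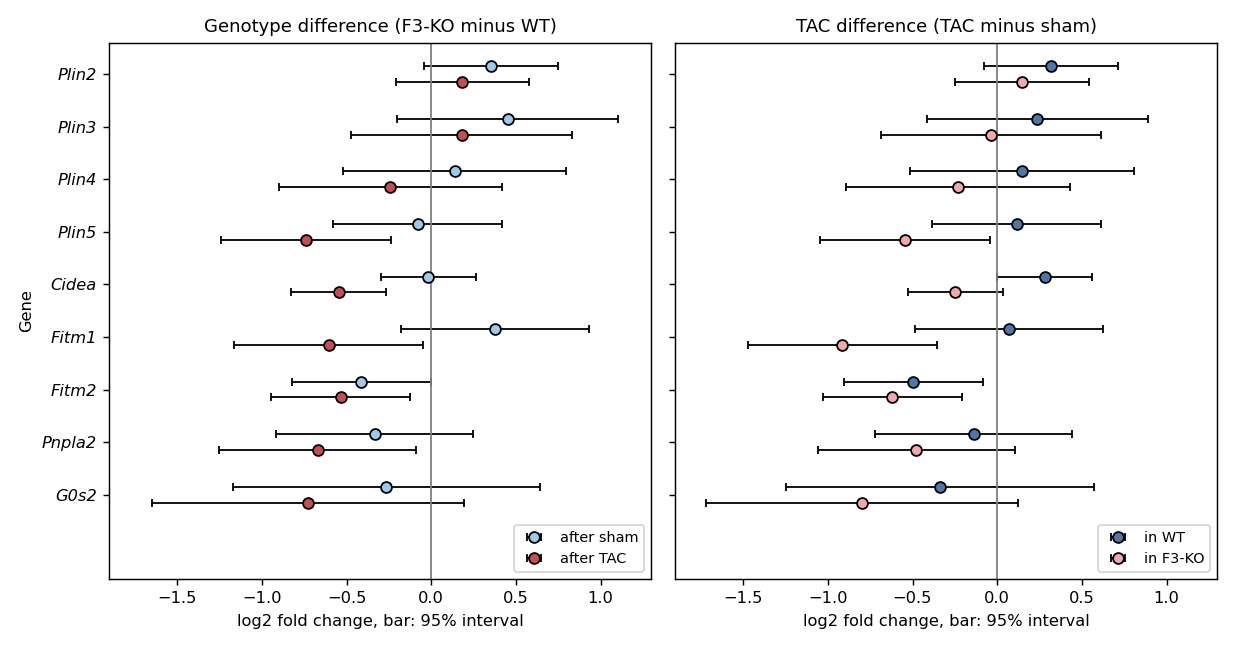
Log2 fold change of each of the 9 tested genes with its 95% interval from edgeR's quasi-likelihood model of all 12 hearts, for F3-KO minus WT (left, after sham and after TAC) and TAC minus sham (right, in WT and in F3-KO hearts). *Fitm2* lies left of 0 in all 4 comparisons, whereas *Fitm1* lies right of 0 after sham and at -0.61 after TAC.

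The FITM genes had the lowest unadjusted p-values for surgery in F3-KO hearts and in the average over genotypes. *Fitm2*, the more widely expressed of the pair, was at 292, 264 and 328 CPM in WT sham hearts, 234, 198 and 233 CPM in F3-KO sham hearts, 184, 242 and 202 CPM in WT TAC hearts and 154, 104 and 176 CPM in F3-KO TAC hearts. The WT sham hearts were the 3 highest of all 12 and the F3-KO TAC hearts the 3 lowest, with the other 6 between them. Against WT sham, the log2 fold change was -0.50 (SE 0.19, adjusted p = 0.782) for TAC alone and -0.41 (SE 0.19, adjusted p = 0.827) for the deletion alone, in edgeR's quasi-likelihood model after Benjamini-Hochberg correction over all genes. The interaction was -0.12 with a 95% interval of -0.70 to 0.46, an interval that takes in differences in either direction. Averaged over genotypes the TAC difference was -0.56 (SE 0.13, unadjusted p = 0.00128, adjusted p = 0.104, the same edgeR test). DESeq2's adjusted p for it was 0.00459, and without F3-KO TAC heart 3 edgeR's quasi-likelihood fit gave -0.64 with a Benjamini-Hochberg adjusted p of 0.0233. None of the 12 values of *Fitm2* was a whole number, as counting that shares reads between genes can give, and its level is uncertain to that extent.

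*Fitm1* followed another course. It was at 125, 86.9 and 116 CPM in WT sham hearts and 159, 119 and 148 CPM in F3-KO sham hearts, groups that overlapped. After TAC it was at 83.5, 164 and 96.3 CPM in WT hearts and 95.8, 60.4 and 69.7 CPM in F3-KO hearts, where WT TAC heart 2 held the highest level of all 12. Within F3-KO hearts the log2 fold change with TAC was -0.91 (SE 0.26, 0.530 times the sham level, unadjusted p = 0.00388, adjusted p = 0.175, edgeR quasi-likelihood, Benjamini-Hochberg over all genes), with every TAC heart below every sham heart. In WT hearts it was 0.07 (SE 0.25), and -0.28 without WT TAC heart 2. The interaction was -0.98 (SE 0.36, unadjusted p = 0.0184, adjusted p = 0.954, the same edgeR test), the largest in size of the 9 genes. *Fitm1* stood at 135 to 175 CPM per kilobase for every 100 of *Fitm2* in WT sham hearts and at 245 to 277 in F3-KO sham hearts, ranges that did not meet. In TAC hearts this ratio was 185 to 276 in WT and 162 to 255 in F3-KO, ranges that overlapped.

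*Cidea*, whose product promotes the exchange of lipid between droplets in brown fat and is also made in heart, had the smallest unadjusted p of the 9 in the genotype comparison after TAC. It was at 42.2, 37.8 and 41.9 CPM in WT TAC hearts and 24.8, 27.2 and 31.5 CPM in F3-KO TAC hearts, and the groups did not overlap. The log2 fold change was -0.55 (SE 0.13, 0.685 times the WT level, unadjusted p = 0.00116, adjusted p = 0.253, edgeR quasi-likelihood, Benjamini-Hochberg over all genes), and DESeq2's adjusted p was 0.0252. After sham it was at 29.7, 38.5 and 32.2 CPM in WT and 34.2, 32.5 and 32.4 CPM in F3-KO hearts (log2 fold change -0.02, 95% interval -0.30 to 0.26). With TAC it was higher in WT (0.28, SE 0.13) and lower in F3-KO hearts (-0.25, SE 0.13), and the interaction of -0.53 (SE 0.18) had an unadjusted p of 0.0134 and an adjusted p of 0.954 in the same edgeR test. *Cidea* varied least among the 9 genes over the 12 hearts, with a coefficient of variation of 16.1%. Brown adipocyte markers moved in part with the groups, since their sum was 2.39 to 15.5 CPM in F3-KO TAC hearts and 0.863 to 2.51 CPM in the others. That sum was mostly *Dio2* (up to 14.04 CPM), *Ucp1* being at 0 in all F3-KO TAC hearts, and its part in the *Cidea* difference was not tested.

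Triglyceride lipolysis was represented by *Pnpla2*, its droplet-side partner *Plin5* and its inhibitor *G0s2*. *Pnpla2* was at 754, 685.5 and 792 CPM in WT sham hearts, 554, 557 and 661 CPM in F3-KO sham hearts, 942, 497 and 587 CPM in WT TAC hearts and 363, 308 and 601 CPM in F3-KO TAC hearts. F3-KO sham hearts lay below all WT sham hearts, whereas after TAC the groups overlapped, with WT TAC heart 1 highest of all and F3-KO TAC hearts 1 and 2 lowest. The genotype difference in log2 was -0.33 (SE 0.27) after sham and -0.67 (SE 0.27, unadjusted p = 0.0276, adjusted p = 0.474, edgeR quasi-likelihood, Benjamini-Hochberg over all genes) after TAC. Averaged over both surgeries it was -0.50 (SE 0.19, unadjusted p = 0.0209, adjusted p = 0.391, the same edgeR test). Without WT TAC heart 1 the difference after TAC was -0.36, and without F3-KO TAC heart 3 it was -1.01 with an adjusted p of 0.0783.

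*Plin5* was at 121, 117 and 138 CPM in WT sham hearts and 136, 99.3 and 120.5 CPM in F3-KO sham hearts (log2 fold change -0.08, 95% interval -0.58 to 0.42). After TAC it was at 179, 116 and 112 CPM in WT hearts and 74.0, 61.1 and 109 CPM in F3-KO hearts. All 3 F3-KO TAC hearts lay below all WT TAC hearts, though heart 3 only by a narrow margin, and the log2 fold change was -0.74 (SE 0.23, 0.600 times the WT level, unadjusted p = 0.00766, adjusted p = 0.436, edgeR quasi-likelihood, Benjamini-Hochberg over all genes). It was -0.49 without WT TAC heart 1 and -1.01 without F3-KO TAC heart 3. By Pearson's r of log2 CPM, the gene whose level followed *Plin5* most closely over the 12 hearts was *Pnpla2* (r = 0.92, and 0.891 after each group's mean was taken out). By rank the pair was less close, with a Spearman correlation of 0.776, against 0.874 for *Plin5* with *Slc27a1*. *Plin5* stood at 23.3 to 35.6 CPM per kilobase for every 100 of *Pnpla2* in the 12 hearts, although *Pnpla2* itself ranged from 308 to 942 CPM.

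*G0s2* was low and uneven, at 29.6, 74.6 and 33.1 CPM in WT sham hearts, 32.9, 26.4 and 55.1 CPM in F3-KO sham hearts, 18.7, 55.7 and 34.5 CPM in WT TAC hearts and 23.2, 23.6 and 18.9 CPM in F3-KO TAC hearts. The F3-KO TAC hearts lay below all F3-KO sham hearts and above WT TAC heart 1. The log2 fold change with TAC in F3-KO hearts was -0.80 (SE 0.42, unadjusted p = 0.0834, adjusted p = 0.358, edgeR quasi-likelihood, Benjamini-Hochberg over all genes). WT sham heart 2, the highest of the 12, decided the sign in WT hearts, where the log2 TAC difference was -0.34 with it and 0.21 without it, and in the sham hearts, where the genotype difference was -0.26 with it and 0.28 without it. The same heart held the highest summed level of the 4 neutrophil markers, 39.0 CPM of the library total against 5.38 to 18.2 CPM in the others, and their part in its *G0s2* level was not tested. *G0s2* shares 1057 bases with *Lamb3* on the other strand in the GENCODE annotation, measured from start to end of each gene with introns included. Overlap of their exons was not computed, and strand use in counting is not given in the sources used here. Whether reads of the 2 genes were mixed was therefore not tested.

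*Plin2*, the perilipin of most tissues and a gene that responds to fatty acid load, was at 71.0, 63.2 and 62.0 CPM in WT sham hearts and 84.2, 76.7 and 89.98 CPM in F3-KO sham hearts, which lay above all WT sham hearts (log2 fold change 0.35, SE 0.18, adjusted p = 0.911, edgeR quasi-likelihood, Benjamini-Hochberg over all genes). After TAC it was at 109.7, 73.6 and 60.8 CPM in WT hearts and 100.4, 89.1 and 88.1 CPM in F3-KO hearts. The TAC groups overlapped through WT TAC heart 1, and the log2 fold change was 0.18 (SE 0.18, 95% interval -0.21 to 0.58) with it and 0.46 (SE 0.13, adjusted p = 0.198, the same edgeR test) without it. All 6 F3-KO hearts lay above 5 of the 6 WT hearts, the exception being WT TAC heart 1. Counts of *Plin2* were not whole numbers in 6 of 12 hearts, and its level is uncertain in the same way as that of *Fitm2*.

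The gene that followed *Plin2* most closely of all 14094 was *Angptl4*, a fatty acid-induced inhibitor of lipoprotein lipase, with a Pearson's r of 0.945 over 12 hearts and 0.946 within groups. *Angptl4* was at 8.16, 4.03 and 4.17 CPM in WT sham hearts, 27.5, 17.3 and 23.9 CPM in F3-KO sham hearts, 43.0, 8.19 and 2.0 CPM in WT TAC hearts and 50.5, 47.7 and 20.2 CPM in F3-KO TAC hearts. Both genes were high in WT TAC heart 1 and F3-KO TAC heart 1 and lowest in WT TAC heart 3. The correlation is a description over 12 libraries that share group, depth and scaling, and *Angptl4* was picked by the search that gave it.

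**Figure D3:**
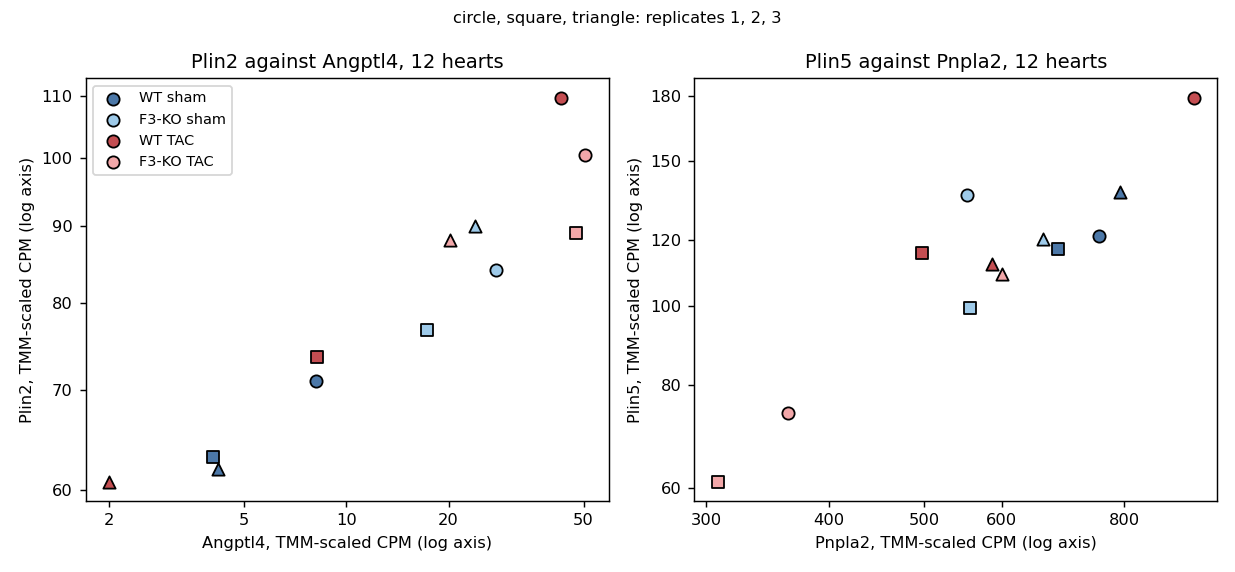
Level of *Plin2* against *Angptl4* (left) and of *Plin5* against *Pnpla2* (right) in each of 12 hearts, as TMM-scaled CPM on log axes, with colours for groups and circle, square and triangle for replicates 1, 2 and 3. WT TAC heart 1 (filled red circle) lies at the upper end of both plots, and WT TAC heart 3 lies at the lower end of the left one with 60.8 CPM of *Plin2*.

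*Plin3*, a perilipin that is soluble in the cytosol and binds nascent droplets, was at 171, 170.4 and 180.1 CPM in WT sham hearts and 198, 241 and 274 CPM in F3-KO sham hearts, which lay above all WT sham hearts (log2 fold change 0.45, SE 0.30, adjusted p = 0.998, edgeR quasi-likelihood, Benjamini-Hochberg over all genes). After TAC it was at 258, 149 and 207 CPM in WT hearts and 147, 182 and 367 CPM in F3-KO hearts. F3-KO TAC heart 3 held the highest level of all 12 and F3-KO TAC heart 1 the lowest, and the genotype difference after TAC was 0.18 (SE 0.30) with heart 3 and -0.32 (SE 0.22) without it. As for *Fitm2*, none of its 12 values was a whole number.

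*Plin4*, a long perilipin of fat and striated muscle, was at 296, 286 and 262 CPM in WT sham hearts and 275, 312 and 342 CPM in F3-KO sham hearts. After TAC it was at 376, 218 and 339.7 CPM in WT hearts and 156.5, 217 and 417 CPM in F3-KO hearts, so that the spread within the F3-KO TAC group took in every other heart. The genotype difference after TAC was -0.24 (SE 0.30, 95% interval -0.90 to 0.42), and -0.74 (SE 0.23, adjusted p = 0.134, edgeR quasi-likelihood, Benjamini-Hochberg over all genes) without F3-KO TAC heart 3. *Plin3* and *Plin4* varied together, with a Pearson's r of 0.835 over 12 hearts and 0.972 within groups.

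**Figure D4:**
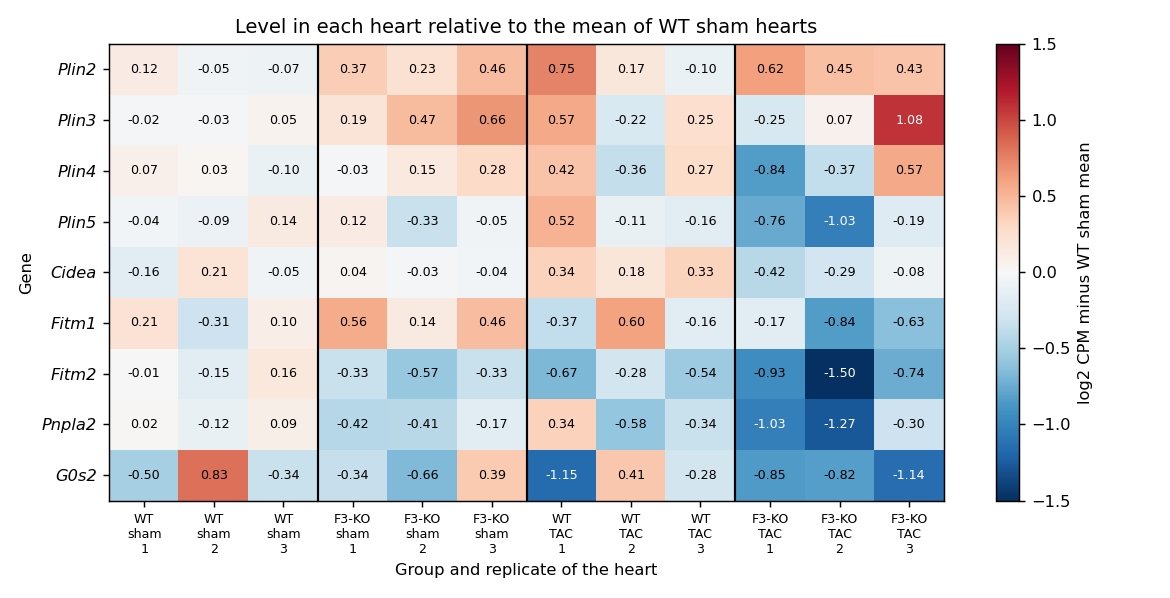
Level of each of the 9 tested genes (y axis) in each of the 12 hearts (x axis, grouped), as log2 CPM (prior count 2) minus the mean of the 3 WT sham hearts, with the value printed in each cell and the colour scale running from -1.5 (blue) to 1.5 (red). F3-KO TAC hearts 1 and 2 are below the WT sham mean in 8 and 7 genes respectively, and F3-KO TAC heart 3 stands at 1.08 for *Plin3*.

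Several of these values rested on single hearts. WT TAC heart 1 had the highest level of *Plin2*, *Plin5*, *Pnpla2* and *Cidea* of all 12 hearts, and also of *Lipe* (110.2 CPM) and *Pdk4*, the fatty acid-responsive pyruvate dehydrogenase kinase, with 1651 CPM against 117 to 338 CPM in the other 11. F3-KO TAC heart 3 had the highest *Plin3* and *Plin4* and, of its group, the highest *Plin5*, *Pnpla2*, *Fitm2* and *Cidea*. Its fibroblast markers summed to 1461 CPM of the library total, against 4177 and 7499 CPM in F3-KO TAC hearts 1 and 2. That sum lay within the range of the sham hearts (698 to 1546 CPM), and its part in these levels was not tested. Without F3-KO TAC heart 3, 7 of 9 genes had an unadjusted p under 0.05 for TAC in F3-KO hearts, all lower, where 24.6% of all genes had one. *Fitm2* then passed the adjusted test with a log2 fold change of -0.79 (adjusted p = 0.0448, edgeR quasi-likelihood, Benjamini-Hochberg over all genes, 5.43% of 14340 genes called), as it did for TAC over both genotypes (5.92% of 14340 genes called). Without WT TAC heart 1, 6 genes had an unadjusted p under 0.05 in the genotype comparison after TAC, 5 of them with the lower level in F3-KO hearts, where 15.6% of all genes had such a p, and none passed the adjusted test. In that comparison the 5 genes at an unadjusted p under 0.05 (10% of all genes) became 2 without F3-KO TAC heart 2 (5.94%). They became 3 without WT TAC heart 2 (7.39%). The 2 such genes of the interaction (4.48% of all genes) became 5 without F3-KO TAC heart 3 (9.79%). The 2 of TAC in WT hearts (6.28% of all genes) became 0 without WT sham heart 3 (4.17%) or without WT TAC heart 1 (3.5%). After sham, the 1 such gene (6.02% of all genes) was lost without any single heart other than WT sham heart 2. In the fits that lost it, 4.03% to 5.96% of all genes had such a p. The share over all genes thus moved in the same direction as these counts.

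Markers of several cell types differed between F3-KO TAC and F3-KO sham hearts, though not in every heart. Some of them also differed with TAC in WT hearts. The summed level of 6 heart muscle cell markers is given above. All 6 had a negative log2 fold change for TAC in F3-KO hearts, from -0.96 for *Myh6* to -0.05 for *Ryr2* and -0.04 for *Actn2*. *Myh6* was at 14448 to 21214 CPM in F3-KO TAC against 31855 to 34460 CPM in F3-KO sham hearts. In WT hearts it was at 16252 to 34081 CPM after sham and 20411 to 34421 CPM after TAC, ranges that overlapped that of F3-KO TAC hearts. The summed level of 6 fibroblast markers was 1461 to 7499 CPM of the library total in F3-KO TAC, 1290 to 3255 CPM in WT TAC and 698 to 1546 CPM in the sham hearts. All 5 red blood cell markers were lower in every F3-KO TAC than in every F3-KO sham heart (median log2 fold change -2.16, 0 past the adjusted test), and their sum was 366.1 to 979.4 CPM in F3-KO TAC, 1070 to 4493 CPM in F3-KO sham, 298.7 to 4357 CPM in WT TAC and 655.8 to 1742 CPM in WT sham hearts. Of 5 macrophage markers 4 were higher in every F3-KO TAC than in every F3-KO sham heart, with sums of 414 to 715 and 295 to 352.5 CPM in these groups, 349 to 549 CPM in WT TAC and 205 to 454 CPM in WT sham hearts. Between the same 2 F3-KO groups, 22.9% of all genes did not overlap, and the markers of a list come from the same hearts. The part of these cell markers in the lower levels of *Fitm1*, *Fitm2*, *Plin5*, *Pnpla2* and *Cidea* was not tested.

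Among other genes of the pathway, taken from lists written with earlier results of these data known, 0 passed the test in any of the 7 comparisons: 0 of 10 tested genes for other droplet proteins, 0 of 10 for other lipases and their regulators, 0 of 15 for triglyceride synthesis and 0 of 9 for fatty acid-responsive PPAR targets other than *Fabp3*. In the genotype comparison after TAC their median log2 fold changes were 0.05, 0.04, -0.03 and -0.52. *Abhd5*, the co-activator of the lipase, was at 51.3 to 72.6 CPM in all 12 hearts, with a genotype difference after TAC of 0.09 (95% interval -0.18 to 0.37). *Lipe*, the hormone-sensitive lipase that acts on diglyceride, was at 110.2, 55.3 and 59.6 CPM in WT TAC and 48.8, 40.8 and 79.5 CPM in F3-KO TAC hearts (log2 fold change -0.42, SE 0.28). *Mgll*, which completes lipolysis, differed by 0.03 (SE 0.26) in the same comparison. *Hilpda*, another lipase inhibitor, was counted at 2.40 to 5.22 CPM and was higher in all F3-KO TAC than in all WT TAC hearts (log2 fold change 0.41, SE 0.25, adjusted p = 0.578, edgeR quasi-likelihood, Benjamini-Hochberg over all genes). Of the enzymes that make triglyceride, *Dgat1* was at 16.2 to 24.7 CPM throughout. *Dgat2* was at 478, 785 and 873 CPM in F3-KO sham hearts and 304, 243 and 504 CPM in F3-KO TAC hearts, groups that overlapped (log2 fold change -1.02, SE 0.30, unadjusted p = 0.00466, adjusted p = 0.178, the same edgeR test). In WT hearts it was at 471, 368 and 523 CPM after sham and 321, 486 and 449.8 CPM after TAC. The F3-KO and WT sham hearts overlapped (log2 fold change 0.65, SE 0.29, unadjusted p = 0.0473, adjusted p = 0.827, the same edgeR test).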

How the data were processed

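The authors deposited estimated counts per gene for 12 hearts, not normalized, of which 40.6% of values were not whole numbers. According to the supplementary methods, reads were filtered with SOAPnuke and mapped with HISAT2 2.0.4 and STAR 2.3.0. The submitters' processing notes name both mapping tools, DESeq2 and the builds mm8 and mm9. The counting tool is not given in the sources used here, and a tool that shares reads between similar genes can move counts between them. Tests had been planned for counts, and the estimated counts were rounded. The joint table was used. The tables of 11 single hearts held the same values, and that of WT sham heart 2 breaks off early and was not used. No pair of replicates was merged, since chi-square per degree of freedom within groups ran from 9.95 to 83.8.

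The 10 genes and all lists were chosen with earlier results of these data known. Named genes were these 10, *Fabp3*, the listed pathway genes that passed the test, *Plin1*, *Lipe*, *Mgll*, *Abhd5*, *Hilpda*, *Dgat1* and *Dgat2*, the defining marker genes and the 3 genes most like each member by Pearson's r. *Pdk4* was named after its values were seen.

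With R 4.3.3 and edgeR 4.0.16, genes were filtered with filterByExpr (minimum count 10), which left 14094 genes and removed 5214 that held 0.0775% of all counts. Libraries were scaled with TMM factors of 0.931 to 1.09, and all 12 hearts entered 1 quasi-likelihood model with a mean per group (8 residual degrees of freedom, common biological coefficient of variation 0.232). P-values were adjusted over all tested genes by Benjamini-Hochberg and called under 0.05. DESeq2 1.42.0, limma 3.58.1, other scalings and filters, the replicate number as a block, fits of only the hearts compared and fits without each heart in turn were run as alternatives. The scripts were tested on simulated data. Exon lengths and overlapping genes came from GENCODE M21 on GRCm38 and served only for levels per kilobase and for overlaps. From start to end of the gene, introns included, *Cidea*, *Fitm1*, *Fitm2* and *Plin4* share 500, 375, 673 and 17 bases with a gene on the other strand. Overlap of exons was not computed. Marker sums are CPM of the library total.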

Additional observations from a re-analysis of the deposited data

How the results depend on the processing

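The count of the 9 tested genes past the adjusted test, 0 in each of the 7 comparisons, became 2 for TAC in F3-KO hearts, 1 for genotype after TAC, 1 for TAC over both genotypes and 1 for genotype over both surgeries under DESeq2's Wald test. Leaving out each heart in turn gave 0 to 1 for TAC in F3-KO hearts and for TAC over both genotypes, where the 1 was *Fitm2* without F3-KO TAC heart 3, and 0 in the other 5 comparisons. DESeq2's size factors, library totals, no filter, a minimum of 10 counts per heart, limma-trend and only the hearts compared gave 0. With a replicate block the count was also 0. Hearts with the same number did not all deviate together (correlations of -0.141 to 0.362), and 6 of 12 hearts correlated best with hearts of their own number. With 12 hearts, these correlations cannot show whether hearts of the same number were handled together. Scaling by library totals alone moved the median of all genes from 0.02 to 0.12 for TAC in F3-KO hearts and for genotype after TAC and from 0.03 to 0.16 for the interaction, where the medians of the 9 genes were -0.40, -0.45 and -0.28. It moved the share of higher genes among all called genes from 36.4% of 11 to 55.6% of 9 for genotype after TAC. After sham the share moved from 33.3% of 15 to 11.1% of 9, so that both shifts rest on few genes. The sign of an uncalled gene turned under at least 1 alternative for *Plin4*, *Plin5*, *Fitm1*, *Pnpla2* and *G0s2* with TAC in WT hearts, *Plin3* and *Plin4* with TAC in F3-KO hearts, *Plin5*, *Cidea* and *G0s2* after sham, *Plin3* and *Plin4* after TAC, *Plin2* and *Fitm2* in the interaction, *Plin3*, *Plin4* and *Cidea* over both genotypes, and *Plin4* and *Fitm1* over both surgeries. Leaving out a heart leaves 2 hearts in its group. At 3 hearts a group the SE of the genotype difference after TAC was 0.13 (*Cidea*) to 0.42 (*G0s2*), and differences near such an SE were not detectable.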

Other observations

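Genes with the most similar levels over the 12 hearts, by Pearson's r of log2 CPM, were searched among all 14094 tested genes, so that high values arise in part from the search, and all 12 points share library, depth and scaling. After *Angptl4*, *Plin2* was followed by *Klf11* (r = 0.933) and by *Ucp2*, an uncoupling protein gene (r = 0.917). *Plin5* was followed, after *Pnpla2*, by *Slc27a1*, a fatty acid transport protein gene (r = 0.906), and *Get4* (r = 0.901). *Plin4* was nearest to *Inpp5k* (r = 0.948), *Klf9*, a transcription factor gene induced by glucocorticoids (r = 0.946), and *Art3* (r = 0.939), *Plin3* to *Rsph3a* (r = 0.951), *Tmem5* (r = 0.936) and *Zfp358* (r = 0.93), and *Pnpla2* to *Wnt11* (r = 0.944), *Ilvbl* (r = 0.939) and *Amotl2* (r = 0.938). *Fitm1* was nearest to *Tufm*, a mitochondrial translation factor gene (r = 0.948), *Tmem177* (r = 0.941) and *Eno3*, the muscle enolase gene (r = 0.936), whereas *Fitm2* was nearest to *Anxa11* (r = 0.967), *Entpd6* (r = 0.966) and *P3h4* (r = 0.957). *Cidea* was nearest to *2310009B15Rik* (r = 0.928), *Dctn6* (r = 0.915) and *Nop53* (r = 0.872), and *G0s2* to *Cdc26* (r = 0.891), *Znhit3* (r = 0.882) and *Gadd45gip1* (r = 0.877). No gene among the 3 nearest to one member was among the 3 nearest to another.

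Among the listed PPAR targets, *Slc25a20*, the carnitine-acylcarnitine carrier of mitochondria, was at 229, 247 and 282 CPM in F3-KO sham hearts and 156, 106 and 194 CPM in F3-KO TAC hearts, below every F3-KO sham heart (log2 fold change -0.73, unadjusted p = 0.00196, adjusted p = 0.175, edgeR quasi-likelihood, Benjamini-Hochberg over all genes). In WT hearts *Slc25a20* was at 198, 166 and 180 CPM after sham and 199, 195 and 204 CPM after TAC. The F3-KO sham hearts lay above every WT sham heart (log2 fold change 0.48, adjusted p = 0.719, the same edgeR test). The lipase gene *Ces1d* was at 77.3, 113 and 168 CPM in F3-KO sham and 33.8, 17.2 and 49.1 CPM in F3-KO TAC hearts (log2 fold change -1.84, adjusted p = 0.175, the same edgeR test). WT hearts held 112, 53.2 and 66.4 CPM of *Ces1d* after sham and 19.8, 89.7 and 47.4 CPM after TAC. Both were chosen after their values were seen.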
